A study of Mus musculus with 7 samples.

Results

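The mRNA levels of 10 regulators of meiotic arrest and meiotic maturation were compared between Mfn1-/- and WT oocytes. The genes were Gpr3, Pde3a, Wee2, Cdc25a, Cdc25b, Ccnb1, Ccnb2, Cdk1, Mos and Fzr1. They were chosen by name for their roles in cAMP control, CDK1 control and meiotic resumption, and 10 of 10 were found among the 22877 genes of the authors' table. RNA came from oocytes enclosed in secondary follicles of 8-week-old C57BL/6J females, with 5 oocytes pooled in each library, and there were 3 Mfn1-/- and 4 WT libraries. Mfn1-/- mice carried floxed Mfn1 alleles and Cre under the Zp3 promoter, which is active in growing oocytes, so that the gene is intact in other ovarian cells and in oocytes before growth. The controls were WT littermates. The table gives 1 mean of normalized counts per genotype and gene, made by the authors. No values of single libraries were analysed, so no SD, replicate spread or test could be given for any difference below, and each mean is the authors' own.

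Oocytes in growing follicles are held in prophase of the first meiotic division. The orphan receptor GPR3 keeps cAMP high through Gs and adenylyl cyclase, and the phosphodiesterase PDE3A breaks cAMP down. High cAMP activates protein kinase A, which favours the inhibitory kinase WEE2 and restrains the phosphatase CDC25B, so that the complex of CDK1 with cyclin B stays inactive. FZR1 directs the anaphase-promoting complex (APC/C) to cyclin B during arrest, and MOS acts later, through the MAP kinase pathway, to hold the mature egg at metaphase of the second division. Oocytes of secondary follicles are still growing and are in general not yet able to resume meiosis.

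Mfn1 (chromosome 3, 32529465 to 32579239, GRCm38) averaged 0.0577 normalized counts in Mfn1-/- against 0.616 in WT, the latter a low level too, and 77 other genes share with it a stretch of at least 75 bases, the read length, at 95% identity or more. Summed over all genes, the means reached 142576 for Mfn1-/- and 130160 for WT. The scale of the normalized counts is not named in the sources used here. Among genes at the lowest mean of 0.01 in Mfn1-/-, the median excess of low WT means over 0.01 went from 0.0529 at a median exonic length of 586 bases to 0.0024 at 5722 bases. Multiplied by length in kilobases, the median excess lay between 0.0242 and 0.0298 in the shorter length groups and at 0.0148 in the longest. The values thus behave roughly as levels per length, less so for the longest genes. Levels of different genes are set side by side below only in that rough sense. All 16 oocyte markers had a row, led by Ooep (1310 against 1120) and H1foo (813 against 1100), and their summed means were 4990 for Mfn1-/- and 4856 for WT. Without Ooep the order turned round, with sums of 3680 for Mfn1-/- and 3736 for WT. Sohlh1, at 3.68 against 0.105, was the only oocyte marker past a fold of 2, and is named after its values were seen. The 12 granulosa cell markers found, of 14 listed, summed to 2.38 and 1.72. Inha made up 1.87 and 0.954 of these sums, Cyp19a1 0.0846 and 0.193, and the list without Inha 0.505 and 0.764. Amh, Fshr and Foxl2, which define granulosa cells, lay between 0.016 and 0.0525 in both genotypes, and are named after their values were seen. Of the 12 granulosa cell markers, 4 had the higher mean in Mfn1-/-, Amh and Foxl2 among them, and 8 had the lower, Fshr among them. The part of these markers in the differences below was not tested. Since the values are relative to a whole library, fewer cells of a type and less RNA per cell cannot be told apart.

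Differences are given as the log2 of the Mfn1-/- mean over the WT mean, with a pseudocount of 0.1 added to each (log2 fold change), and a gene was called when it lay past a fold of 2. Of the 10 regulators, 0 were called higher and 0 lower. Among all 22877 genes, 4.87% were called higher and 2.75% lower, together 7.61%. At that share, a count of 0 among 10 genes says little. At a fold of 1.5, 0 of the 10 lay past the threshold, beside 12.4% of all genes higher and 6.88% lower, together 19.3%. Pde3a aside, 9 of the regulators had a mean over the 7 libraries of 1 or more, a level reached by 6226 genes, termed expressed genes here. Of those 6226, 5.44% were higher and 3.24% lower past a fold of 2, together 8.69%, and 15.5% and 7.71% past a fold of 1.5, together 23.2%. The log2 fold changes of the 10 ran from -0.28 for Pde3a to 0.46 for Ccnb2, with a median of 0.21, beside a median of 0.16 over the expressed genes and 0.037 over all genes. The value of 0.46 was larger in size than that of 66.8% of the expressed genes. On the deposited scale 8 of the 10 regulators had the higher mean in Mfn1-/- oocytes, beside 4069 of the 6226 expressed genes and 12973 of all 22877 genes. With the expressed-gene median taken off, or with both genotypes set to equal totals, 6 of 10 did, since Gpr3 and Wee2 changed sign. Among the 6226 expressed genes, 3113 lay above their own median, which follows from the scaling itself, and 3331 were higher at equal totals.

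**Figure D1:**
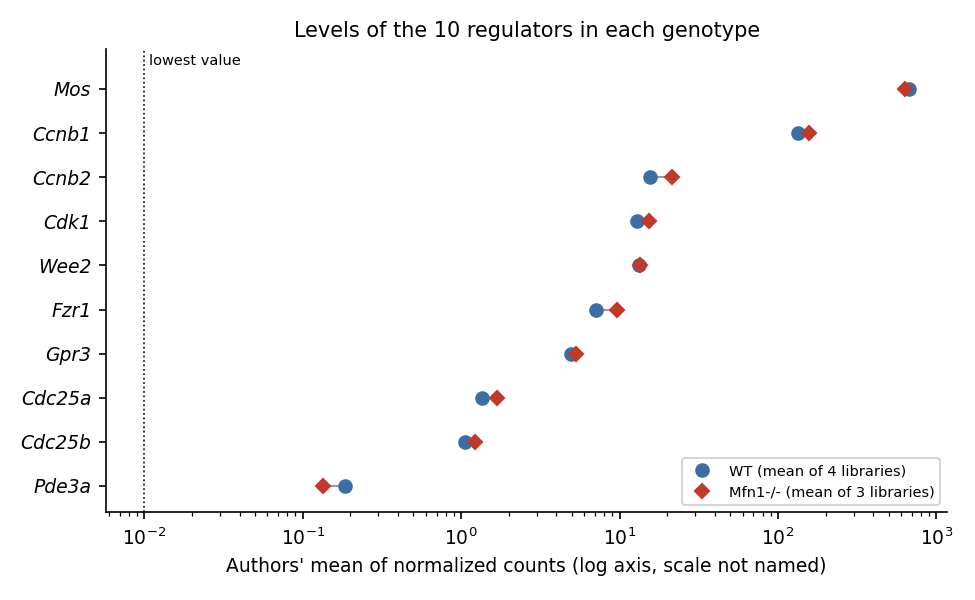
Authors' mean of normalized counts (log axis) of each regulator in WT (circles, 4 libraries) and Mfn1-/- oocytes (diamonds, 3 libraries). The pairs lie close together from Mos, at 673 in WT and 631 in Mfn1-/-, down to Pde3a, at 0.186 and 0.135 normalized counts.

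The levels of the 10 genes spanned a wide range. Mos, whose product is a germ-cell kinase that switches on MAP kinase signalling, was the highest, with 673 normalized counts in WT and 631 in Mfn1-/- oocytes, and ranked 14 of all 22877 genes by its mean over the libraries. Ccnb1, which may have shared reads with the pseudogenes given below, came next among the 10. Ccnb2, Cdk1, Wee2 and Fzr1 followed, with means between 7.07 and 21.3. Gpr3 had means near 5, and Cdc25a and Cdc25b had means between 1.06 and 1.68. Pde3a was last, with rank 12004. At 12737 exonic bases it is longer than the median of 5722 in the longest length group, where levels per length held less well. In this order only Cdk1 and Wee2 differed in place between the genotypes, with WT means of 12.8 and 13.2 and Mfn1-/- means of 15.3 and 13.4. Without values of single libraries, it cannot be said which neighbours in the order differ beyond their spread.

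**Figure D2:**
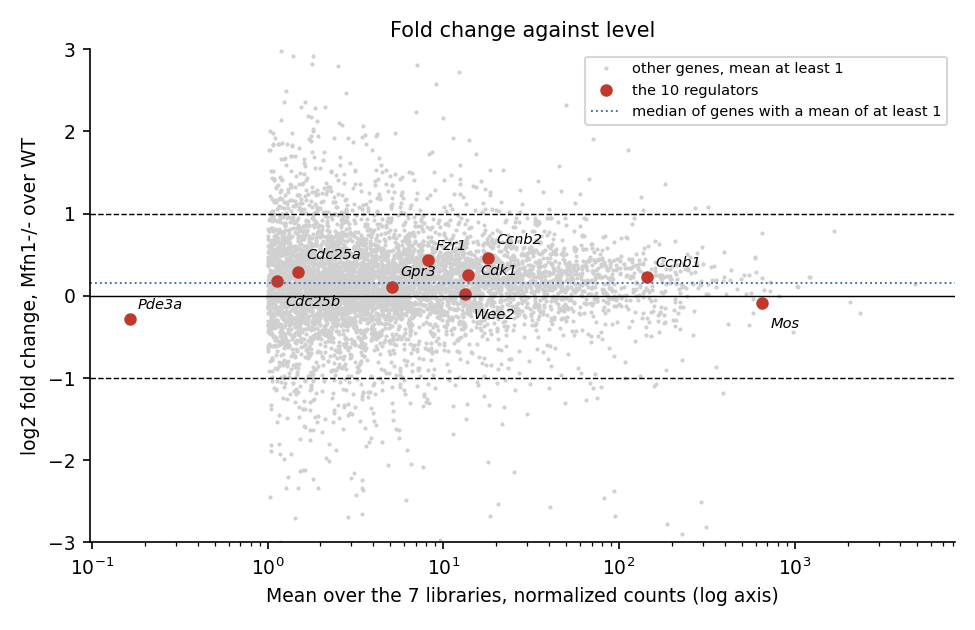
Log2 fold change of Mfn1-/- over WT against the mean over the 7 libraries (log axis) for the 10 regulators (red) and for the expressed genes (grey), with 2-fold differences dashed. All 10 regulators lie between the dashed lines, and 21 genes past 3 on the log2 scale lie outside the axis.

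For cAMP control, Gpr3 (chromosome 4, 133209340 to 133212536) averaged 5.31 normalized counts in Mfn1-/- against 4.91 in WT. Its log2 fold change of 0.11 became -0.05 relative to the expressed-gene median. A stretch of 204 exonic bases of Gpr3, 7.46% of its exonic length, overlaps Cd164l2 on the opposite strand, which had means of 43 and 40.3. The protocol as described does not mark strand, so reads in this stretch cannot be assigned to either gene. Pde3a (chromosome 6, 141249269 to 141507448), which encodes the phosphodiesterase that lowers cAMP in oocytes, averaged only 0.135 against 0.186. The log2 fold change of Pde3a, -0.28, depends on the pseudocount at this level, and was -0.43 when 0.01 and -0.06 when 1 was added instead. Pde3a shares 741 exonic bases with the antisense gene Gm28523, with means of 0.363 and 0.364. The log2 fold change of Gpr3 was above that of Pde3a by 0.39, or by 0.55 when 0.01 and 0.16 when 1 was added instead. Without a pseudocount, the ratio of the Gpr3 level to the Pde3a level was 39.3 in Mfn1-/- and 26.4 in WT. Both ratios rest on the low means of Pde3a.

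Of the other 29 genes listed for cAMP and cGMP control, 24 were in the table, and only 3 of them had a mean of at least 1. Past a fold of 2 there were 0 higher and 1 lower, beside 4.87% and 2.75% of all genes, and the median log2 fold change of the 24 was -0.01. The one called gene was Gpr12, a receptor closely related to GPR3 that also signals through Gs, and it is named here after its values were seen. Gpr12 averaged 0.0205 normalized counts in Mfn1-/- against 0.243 in WT. This is a log2 fold change of -1.51, which was -3.05 when 0.01 and -0.28 when 1 was added in place of 0.1. Its WT mean exceeded that of Pde3a, while its Mfn1-/- mean was close to the lowest value of the table. Rgs2, a regulator that dampens G protein signalling, was the highest of the list, with means of 191 and 216 and a log2 fold change of -0.18. Prkar1a, a regulatory subunit of protein kinase A, had means of 5.44 and 3.63 and a log2 fold change of 0.57. Gnas, which encodes the Gs alpha subunit that couples GPR3 to adenylyl cyclase, had means of 4.5 and 2.95 and a log2 fold change of 0.59.

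For the kinase and phosphatases of the set that act on CDK1, the ratios of Mfn1-/- over WT lay between 1.02 and 1.24. Wee2 (chromosome 6, 40439088 to 40466813), the oocyte kinase that phosphorylates CDK1 to keep it inactive, averaged 13.4 normalized counts in Mfn1-/- against 13.2 in WT. Its log2 fold change of 0.02 was the smallest in size among the 10, and became -0.14 relative to the expressed-gene median. Cdc25b (chromosome 2, 131186949 to 131198497), the phosphatase needed to start meiotic resumption in mouse oocytes, had means of 1.22 and 1.06. Its log2 fold change was 0.19, or 0.03 relative to the expressed-gene median. Exons of Cdc25b overlap 92 bases of Spef1 on the opposite strand, a gene at 0.0233 and 0.0298. Cdc25a (chromosome 9, 109875579 to 109893895), a phosphatase of the same family, had means of 1.68 and 1.35. Its log2 fold change was 0.30, or 0.14 relative to the expressed-gene median. Taken as a difference in log2 fold change, Wee2 minus Cdc25b was -0.16 and Wee2 minus Cdc25a was -0.27. In the same list, Wee1 (log2 fold change 0.23), Pkmyt1 (0.23) and Cdc25c (-0.03), the remaining kinases and the remaining phosphatase of these families, were under a fold of 1.5, and these 3 genes are named after their values were seen. The ratio of Wee2 to Cdc25b was 11.0 in Mfn1-/- and 12.5 in WT oocytes, and the ratio of Wee2 to Cdc25a was 7.98 and 9.78.

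Cdk1 (chromosome 10, 69335146 to 69352938), the catalytic kinase of maturation-promoting factor, averaged 15.3 normalized counts in Mfn1-/- against 12.8 in WT. Its log2 fold change was 0.26, or 0.10 relative to the expressed-gene median. Ccnb2 (chromosome 9, 70407692 to 70421547), which encodes cyclin B2, had means of 21.3 and 15.5. Its log2 fold change of 0.46 was the highest of the 10, at percentile 77.3 of the expressed genes. Ccnb1 (chromosome 13, 100778650 to 100786570), which encodes cyclin B1, had means of 157 and 134. Its log2 fold change was 0.23, or 0.07 relative to the expressed-gene median. Cdk1 and Ccnb1 thus differed from each other by 0.03 in log2 fold change, and Ccnb1 minus Ccnb2 was -0.23. Cdk1 stood at 0.0975 of the Ccnb1 level in Mfn1-/- and at 0.0955 of it in WT. The ratio of Ccnb1 to Ccnb2 was 7.37 in Mfn1-/- and 8.65 in WT oocytes.

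Ccnb1 has pseudogenes that may have shared reads with it, most of them processed pseudogenes, which are copies of the mRNA set back into the genome. A stretch of 75 bases or longer, the length of 1 read, is shared with Ccnb1 at 95% identity or more by 5 genes. Of these 5, 3 were in the table. Ccnb1-ps (chromosome 7, 42105899 to 42107185) averaged 487 normalized counts in Mfn1-/- against 391 in WT, a log2 fold change of 0.32, with both means above those of Ccnb1 itself. Gm12856 (chromosome 4, 118942060 to 118943352) had means of 113 and 93.6 and a log2 fold change of 0.27. Gm4870 had means of 2.14 and 1.22. The ratio of Mfn1-/- over WT was 1.17 for Ccnb1, 1.25 for Ccnb1-ps and 1.21 for Gm12856. Summed over these 3 genes, the level was 757 in Mfn1-/- against 619 in WT, a ratio of 1.22. Ccnb1 itself held 20.7% of the sum in Mfn1-/- and 21.7% in WT. All 3 genes had the higher mean in Mfn1-/-, while 2 of the 5 copies were not analysed here.

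The sequences below are shown for how alike the 3 genes are over the length of 1 read, even where they differ. They are the 75-base stretches, free of gaps in all 3, of the Ccnb1 coding sequence in which each pseudogene differs most from Ccnb1, taken from the GENCODE M21 transcripts on GRCm38, written 5′ to 3′ in the direction of transcription, with capitals at the positions where the 3 genes are not all the same. The first stretch covers coding bases 400 to 474 of Ccnb1, in exon 4 of 9 on the minus strand (chr13:100783528-100783602), and lies on the minus strand at chr7:42106712-42106786 in Ccnb1-ps and at chr4:118942879-118942953 in Gm12856.
Ccnb1: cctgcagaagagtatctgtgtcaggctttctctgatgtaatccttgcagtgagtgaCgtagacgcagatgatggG
Ccnb1-ps: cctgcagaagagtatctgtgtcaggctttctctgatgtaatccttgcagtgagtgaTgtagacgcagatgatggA
Gm12856: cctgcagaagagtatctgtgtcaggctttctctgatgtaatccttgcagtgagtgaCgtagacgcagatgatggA

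The second stretch covers coding bases 981 to 1055, in exon 7 of 9 (chr13:100780795-100780869, minus strand), and the matching minus-strand positions are chr7:42106131-42106205 and chr4:118942298-118942372. It was chosen as the stretch in which Gm12856 differs most.
Ccnb1: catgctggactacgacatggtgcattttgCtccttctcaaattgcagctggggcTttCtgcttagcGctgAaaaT
Ccnb1-ps: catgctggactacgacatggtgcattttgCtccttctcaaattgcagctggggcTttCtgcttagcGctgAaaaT
Gm12856: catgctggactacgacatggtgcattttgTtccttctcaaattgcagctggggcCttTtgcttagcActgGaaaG

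In the first stretch Ccnb1-ps differed from Ccnb1 at 2 bases and Gm12856 at 1, and in the second Ccnb1-ps was identical to Ccnb1 while Gm12856 differed at 6. Over the whole alignment Ccnb1-ps matched the Ccnb1 coding sequence of 1293 bases at 99.2% of 1287 aligned positions, and Gm12856 at 98.1% of 1294. Of the 1213 windows of 75 bases along the coding sequence, 53.3% held no difference between Ccnb1 and Ccnb1-ps, and 33.3% of 1219 held none between Ccnb1 and Gm12856. How the authors' counting treated reads with several matches is not given in the sources used here. Of the other 9 regulators, Wee2, Cdc25a, Ccnb2, Cdk1, Mos and Fzr1 shared such a stretch with 0 genes, Cdc25b and Gpr3 each with the overlapping gene given above, and Pde3a with 3 genes, Gm28523 among them. Of the further genes named in the text, Cdc25c shared such a stretch with 245 genes, Ube2c with 17, Ywhaq with 8, Ube2s with 6, Cks2 and Ywhaz with 3 each, Gnas and Ooep with 2 each, and Cdc20, Pkmyt1 and Ywhah with 1 each. How far these values hold reads of the other genes was not tested.

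**Figure D3:**
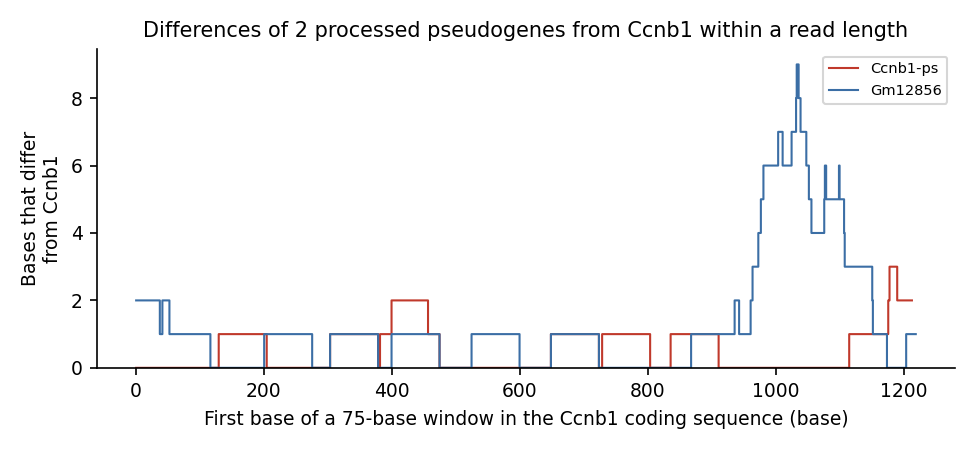
Number of substituted or missing bases between the Ccnb1 coding sequence and Ccnb1-ps (red) or Gm12856 (blue) in each window of 75 bases, the length of 1 read, by the first base of the window. Ccnb1-ps differs at 3 bases at most in any window, and Gm12856 at up to 9, near the 3′ end of the coding sequence.

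Of the 25 other genes listed for CDK1 control, 24 were in the table and 20 had a mean of at least 1. Past a fold of 2 there were 1 higher and 0 lower, beside the 4.87% and 2.75% of all genes, and the median log2 fold change of the 24 was 0.10. The gene past a fold of 2 was Sfn, which encodes the sigma form of the 14-3-3 proteins, a family that binds phosphorylated CDC25 phosphatases. Sfn (chromosome 4, 133600556 to 133602168) averaged 11.9 normalized counts in Mfn1-/- against 5.14 in WT. Its log2 fold change of 1.20 became 1.04 relative to the expressed-gene median, and 712 bases of it are 97.5% identical to the pseudogene Gm7850, which was not analysed here. The other 14-3-3 genes of the list, Ywhab, Ywhae, Ywhag, Ywhah, Ywhaq and Ywhaz, had log2 fold changes from 0.02 to 0.39, and are named after their values were seen. Cks1b and Cks2, small subunits that bind CDK1, were the highest of the 24, with means of 96.9 and 93 for Cks1b and 39.9 and 38 for Cks2, and log2 fold changes of 0.06 and 0.07. Chek1, the checkpoint kinase that acts on CDC25 proteins, followed with 20.4 and 21.5 and a log2 fold change of -0.08. Cdk2 had means of 2.98 and 1.79 and a log2 fold change of 0.70, and Ensa, whose phosphorylated product inhibits the phosphatase that opposes CDK1, had means of 8.6 and 5.46 and a log2 fold change of 0.65. Cdk2 and Ensa are named after their values were seen.

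Fzr1 (chromosome 10, 81366222 to 81378516), whose product CDH1 activates the APC/C during prophase arrest, averaged 9.6 normalized counts in Mfn1-/- against 7.07 in WT. Its log2 fold change of 0.44 was the second highest of the 10, at percentile 75.7 of the expressed genes, and 4 exonic bases of Fzr1 overlap Mfsd12 on the opposite strand. Among the 19 other APC/C genes, all in the table and 16 with a mean of at least 1, 0 were higher and 0 lower past a fold of 2, and the median log2 fold change was 0.05. At the 7.61% of all genes past this fold in either direction, a count of 0 among so few genes says little, which holds for the MOS and MAP kinase genes below too. Ube2c, the ubiquitin-conjugating enzyme that works with the APC/C, was the highest, with means of 43.5 and 33.4 and a log2 fold change of 0.38. Ube2s, which extends the ubiquitin chains, had means of 18.1 and 21.3 and a log2 fold change of -0.23. Cdc20, the activator that takes over from FZR1 at anaphase, had means of 16.1 and 16.5 and a log2 fold change of -0.04, and is named after its values were seen.

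The lowest log2 fold changes of the APC/C list were those of its inhibitors. Fbxo5, which encodes EMI1 (chromosome 10, 5799160 to 5805600), averaged 15.8 normalized counts in Mfn1-/- against 29 in WT, a log2 fold change of -0.87, at percentile 4.30 of the expressed genes. Fbxo5 lay under a fold of 2 on the deposited scale, and past it, at -1.03, relative to the expressed-gene median and, narrowly, when both genotypes were set to equal totals. A stretch of 330 bases of Fbxo5 is 96.1% identical to 3 genes, whose means lay at or under 0.399. Fbxo43, which encodes EMI2, the inhibitor that holds the APC/C in check at metaphase of the second division, had means of 2.14 and 3.35 and a log2 fold change of -0.62, at percentile 6.89, and is named after its values were seen. Fbxo43 shares a stretch of the read length with 37 genes. The log2 fold change of Fzr1 was above that of Fbxo5 by 1.31, the largest difference among the 7 pairs of genes compared. The ratio of Fzr1 to Fbxo5 was 0.608 in Mfn1-/- and 0.244 in WT oocytes.

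For the MOS and MAP kinase branch, Mos (chromosome 4, 3870657 to 3872105), a gene of 1 exon, averaged 631 normalized counts in Mfn1-/- against 673 in WT. Its log2 fold change was -0.09, or -0.25 relative to the expressed-gene median, at percentile 27.0 of the expressed genes. The 8 other genes of this branch were all in the table, with 0 higher and 0 lower past a fold of 2, beside 4.87% and 2.75% of all genes, and a median log2 fold change of 0.10. Mapk3, the MAP kinase ERK1, had means of 36.9 and 44.4 and a log2 fold change of -0.27. Cpeb1, whose product controls the translation of stored Mos and cyclin B mRNAs, had means of 2.76 and 2.22 and a log2 fold change of 0.30, and Map2k2, a kinase upstream of ERK1, had 1.88 and 1.32 and a log2 fold change of 0.48.

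**Figure D4:**
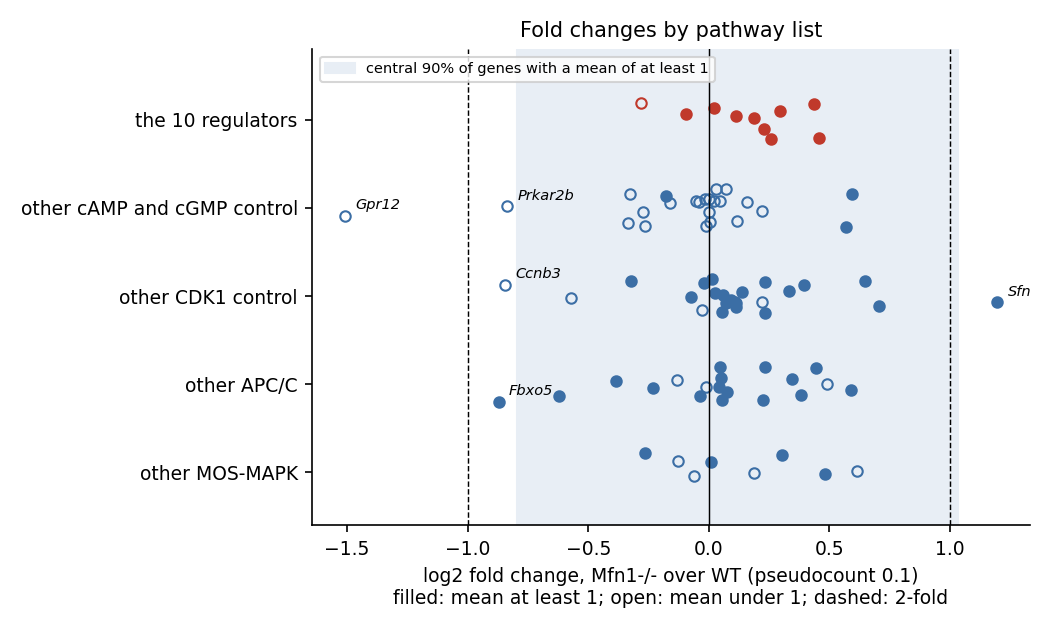
Log2 fold change of Mfn1-/- over WT for the 10 regulators (red) and the other genes of 4 pathway lists (blue), filled where the mean over the libraries is at least 1, with 2-fold differences dashed and the central 90% of expressed genes shaded (-0.79 to 1.03). The 10 regulators lie from -0.28 to 0.46, inside the shaded range, while Gpr12, Fbxo5, Sfn and, named after their values were seen, Prkar2b and Ccnb3 lie outside it.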

How the data were processed

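Libraries of 5 pooled oocytes were prepared from poly(A) RNA by Smart-Seq2 and Nextera XT and sequenced as paired reads of 75 bases. According to the methods and the submitters' processing notes, Cutadapt, the FASTX-Toolkit and STAR (GRCm38/mm10) were applied before gene counting and DESeq2. The annotation version is not given in the sources used here. The deposited signal consists of the authors' genotype means of normalized counts and their sum over libraries. That sum matches 3 Mfn1-/- and 4 WT libraries, to within 1%, for 100% of 22877 genes, although the study states 3 for each genotype. The authors' own comparison (4 columns: p-value, FDR, ratio, fold change) was not used. There were 0 unused columns of single samples. Depth per library is unknown, and no test across libraries could be fitted, so the planned comparisons are given as values.

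The pseudocount was 0.1, and genes past a fold of 2 were counted. The members and gene lists were chosen with earlier results of these data known. The genes named are Mfn1, the 10 members, from each list those past a fold of 2 with a mean of 1 or more and the 3 highest, and the 2 highest markers of each cell type. Other genes named for their values are marked as such, and near-identical copies of named genes are given as counts or by name. GENCODE M21 transcripts were searched with blastn 2.17.0 for stretches of at least 75 bases at 95% identity, and exon overlaps were taken from the same annotation. The alternatives were pseudocounts of 0.01 and 1, equal totals, subtraction of the expressed-gene median, a fold of 1.5 and a minimum mean of 1. The code was checked by putting known folds, without noise, on chosen genes of the WT means. This checks the arithmetic and says nothing on the calls in these data. Python 3.11.15, numpy 2.4.6, pandas 2.3.3 and matplotlib 3.10.9 were used.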

Additional observations from a re-analysis of the deposited data

How the results depend on the processing

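The count of 0 regulators past a fold of 2, in either direction, was the same with pseudocounts of 0.01 and 1, with both genotypes scaled to the same total, relative to the expressed-gene median (a shift of -0.16), at a fold of 1.5 and among genes with a mean of at least 1. Most of these settings could not have changed it. A higher pseudocount only shrinks fold changes, and a subset of 0 called genes stays at 0. The shifts of both scalings, -0.13 and -0.16, are too small to take a largest size of 0.46 past a fold of 2. The signs of Gpr3 and Wee2 changed under both scalings. In the wider lists, the count of lower cAMP and cGMP control genes was 2 when 0.01 was added and 0 when 1 was added, 2 at a fold of 1.5 and 0 among genes with a mean of at least 1, and 1 gene was higher at a fold of 1.5. For CDK1 control, 1 gene (Ccnb3) was lower with a pseudocount of 0.01, with the median subtracted and at a fold of 1.5, where 3 were higher. For the APC/C, 1 gene (Fbxo5) was lower under both scalings, and at a fold of 1.5 there were 2 lower and 1 higher. At a fold of 1.5, 1 gene of the MOS and MAP kinase branch was higher. Of all genes, 12.4% were higher and 6.88% lower at this fold. Of genes with a mean of at least 1, 5.44% were higher and 3.24% lower past a fold of 2. Shares of all genes were not computed for the other pseudocounts and the scalings. The changes in the counts of the lists follow from the threshold, the pseudocount or the scale itself. A log2 value was taken as moved when its fold changed by over 1.5 times, and a count when it changed by over 1.5 times or from or to 0. By this rule 14 values moved, all of them counts of the wider lists given above, and 119 did not. Some of the 119 could not move, since subtraction of the median leaves differences within pairs as they were. The log2 fold changes of the regulators, and their median, could not move under either scaling, since the shifts lie under the rule's limit. Leaving out replicates could not be run on genotype means. No paired analysis was possible because the table gives 1 mean per genotype and its columns carry no replicate numbers.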
